A study of Mus musculus with 4 samples.

Results

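Mural cells, the pericytes and smooth muscle cells that wrap small blood vessels, were followed through 4 single-cell RNA libraries of mouse pancreatic islets. A member was a cell barcode with at least 500 genes and at most 20% mitochondrially encoded UMIs (unique molecular identifiers, 1 per captured transcript). It held at least 2 of the mural genes Rgs5, Notch3, Pdgfrb, Cspg4 and Acta2, at most 1 of the fibroblast genes Col1a1, Dcn, Lum and Pdgfra, no UMI of the leukocyte gene Ptprc, and less than 3% of its UMIs from the insulin genes, from Gcg and from Sst. This gate took 1039 of 43205 barcodes that passed the limits on genes and mitochondrial UMIs. Of these members, 286 held fewer than 3 of the endothelial genes Pecam1, Cdh5, Kdr, Flt1 and Plvap and are called mural cells here, and 753 held 3 or more of them. The 753 carried mural and endothelial transcripts under 1 barcode, against the name of pericyte or smooth muscle cell, and are called members with 3 or more endothelial genes. Detection of these genes chose the members, so their levels are given as a description.

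All 4 libraries came from islets of male mice aged 8 weeks, with 1 library per group, and how many mice went into a library was not stated in the labels. Cre-positive mice were homozygous for floxed Tet2 and Tet3, which encode enzymes that oxidise methylated cytosine in DNA, and carried Pdx1-Cre. The Cre-negative mice had the same floxed alleles without the transgene. Pdx1-Cre acts in the pancreatic epithelium and not in vessel cells, so mural cells of the Cre-positive library are cells of a host whose islet epithelium is the target. IHG offspring were born to mothers of an intrauterine hyperglycaemia model, and control offspring to mothers of its control model. Islets were collected with collagenase, picked by hand, cultured and dissociated with trypsin before 3′ libraries were made on a microwell platform. One library stood for each group, so no difference between groups could be tested against biological spread, and intervals below cover counting error only.

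Pericytes share the basement membrane of capillary endothelium, which recruits them through PDGF-B and the receptor Pdgfrb, while Notch3 maintains the mural state. Smooth muscle cells of arterioles carry the contractile apparatus around smooth muscle actin (Acta2) and myosin heavy chain (Myh11). In islets, pericytes are known to set capillary diameter and to provide basement membrane and signals to beta cells. Their ATP-sensitive potassium channel is built from Kcnj8, the pore subunit, and Abcc9, its sulfonylurea receptor.

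Promoter sequences of 3 genes described below are shown because the factors of the Notch and contractile pathways read short runs of letters in DNA. Rbpj, the DNA-binding partner of Notch, binds TGGGAA, and serum response factor, which drives contractile genes, binds the CArG box. Each sequence is the 250 bases before the RefSeq start site on GRCm38.p6, written 5′ to 3′ on the gene's strand, with the motif in capitals.
Abcc9 (chr6:142702275-142702524, minus strand): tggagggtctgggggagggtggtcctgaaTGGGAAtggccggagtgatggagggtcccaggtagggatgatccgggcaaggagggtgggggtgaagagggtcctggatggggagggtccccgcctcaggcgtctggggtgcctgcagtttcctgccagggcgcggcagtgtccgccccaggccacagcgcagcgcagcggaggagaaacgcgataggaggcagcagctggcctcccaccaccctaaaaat
Steap4 (chr5:7960222-7960471, plus strand): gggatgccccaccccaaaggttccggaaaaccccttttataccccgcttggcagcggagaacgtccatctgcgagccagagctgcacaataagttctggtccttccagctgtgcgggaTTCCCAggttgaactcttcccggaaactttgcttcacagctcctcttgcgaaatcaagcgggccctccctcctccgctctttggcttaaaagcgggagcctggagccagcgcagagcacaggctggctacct
Myl9 (chr2:156775214-156775463, plus strand): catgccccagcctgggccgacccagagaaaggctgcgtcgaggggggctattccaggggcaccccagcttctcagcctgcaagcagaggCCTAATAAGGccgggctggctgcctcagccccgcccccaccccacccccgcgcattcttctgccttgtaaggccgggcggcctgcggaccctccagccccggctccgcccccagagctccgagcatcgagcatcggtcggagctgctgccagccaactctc

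In Steap4 the letters lie on the other strand, as TTCCCA. The Rbpj letters, searched on either strand, stood before at least 1 start site of 10 of 15 pericyte-list genes with a RefSeq promoter, against 24.1% of 27025 genes. Counted per start site, it was in 43.5% of the pericyte list's 23 windows and in 21.6% of all 32851. The CArG box stood before 3 of 24 contractile-list genes (Myl6, Myl9 and Srf), none of the 15 pericyte-list genes and 1.62% of all genes. Motifs were searched on both strands and do not overlap each other in these windows. A match describes letters and not a binding site.

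Barcodes of the libraries held 84146592, 52489846, 95818236 and 109110492 UMIs in the Cre-positive, Cre-negative, IHG offspring and control offspring libraries. Pairs of libraries shared 58 to 246 barcode sequences, and no member was in both libraries of a pair. Mural cells were shallow, with median UMI counts of 1658.5, 1817.5, 1594.5 and 1042 in the Cre-positive, Cre-negative, IHG offspring and control offspring libraries. Of the mural barcodes, 4 went against their name. None of them was of the smooth muscle or pericyte type defined below, and values without them are given beside cell shares, gate gene levels, gene lists and the single genes whose call they change. In the Cre-positive library, 1 barcode held 8 of 10 neural-list genes and 24.1% of the mural UMIs of that library, and another had 9.07% of its UMIs from the hormone gene Ppy. In the Cre-negative library, 2 barcodes with the duct genes Sox9, Spp1 and Epcam held 9.86% and 10.2% of its mural UMIs.

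Mural cells made up 0.751% of 9587 kept cells in the Cre-positive library (72 cells) and 0.574% of 5928 in the Cre-negative library (34 cells). In the IHG offspring library they made up 1.37% of 11938 kept cells (164 cells), against 0.102% of 15752 in the control offspring library (16 cells). The exact 95% binomial intervals were 0.588% to 0.945% in Cre-positive and 0.398% to 0.801% in Cre-negative islets, and 1.17% to 1.60% in IHG and 0.0581% to 0.165% in control offspring. The intervals overlapped between the Cre libraries and were apart between the offspring libraries. Set against the vessel lining, there were 0.0474 mural cells per endothelial cell in the Cre-positive library (95% interval 0.0369 to 0.0601) and 0.172 in the Cre-negative library (0.116 to 0.248). Leaving out the 4 barcodes, the shares were 0.730% in Cre-positive and 0.540% in Cre-negative islets, and the ratios 0.0461 and 0.162. The same ratio was 0.229 in IHG offspring (0.192 to 0.271) and 0.032 in control offspring (0.0181 to 0.0525). Fewer cells of a type and less RNA per cell cannot be told apart by such a count, since a shallow cell misses the gate.

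These ratios moved with how many members held endothelial genes. Members with 3 or more endothelial genes were 174 of 246 members (70.7%) in the Cre-positive library, 2 of 36 (5.56%) in the Cre-negative library, 34 of 198 (17.2%) in IHG offspring and 543 of 559 (97.1%) in control offspring. Counting all members, the ratio to endothelial cells was 0.162 in Cre-positive and 0.182 in Cre-negative islets, and 0.276 in IHG and 1.12 in control offspring. Control offspring were thus lowest by mural cells alone and highest by all members.

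**Figure D1:**
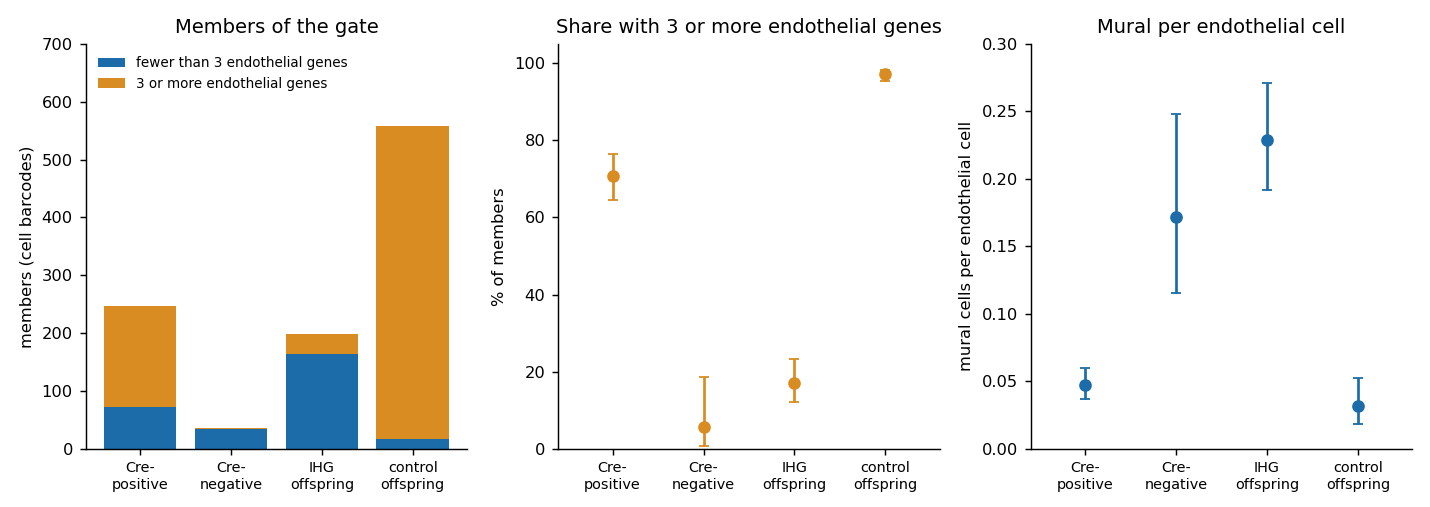
Members in each library (left, number of cell barcodes, stacked by endothelial genes held), the share of members with 3 or more endothelial genes (middle, %) and mural cells per endothelial cell (right); bars in the middle and right panels are exact 95% intervals for counting error. Control offspring have 559 members, of which 16 are mural cells, and IHG offspring have 198, of which 164 are.

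The barcodes that held both sets looked intermediate in every library. Their median UMI counts were 3829.5 in Cre-positive, 4677 in Cre-negative, 4669.5 in IHG offspring and 3376 in control offspring, or 1.05, 1.15, 1.25 and 1.24 times the sum of the medians of mural and endothelial cells of the same library. Their summed level of the pericyte list was 47.1%, 33.9%, 27.0% and 32.8% of that in mural cells, in the same order of libraries, and that of the contractile list 38.4%, 42.6%, 39.0% and 45.0%. Their summed level of the endothelial list was 72.4%, 65.8%, 69.4% and 75.5% of that in endothelial cells. Most of them carried the full set of lining genes: 110 of 174 in Cre-positive, 29 of 34 in IHG offspring and 375 of 543 in control offspring held all 5 endothelial genes, and 25 control barcodes held just 3. Most mural cells held none of them: 61 of 72 Cre-positive, 32 of 34 Cre-negative, 155 of 164 IHG offspring and 15 of 16 control offspring cells. The same 5 genes split the members, so these counts are a description. A rule by detection also takes deeper barcodes more easily, which bears on the UMI medians above.

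**Figure D2:**
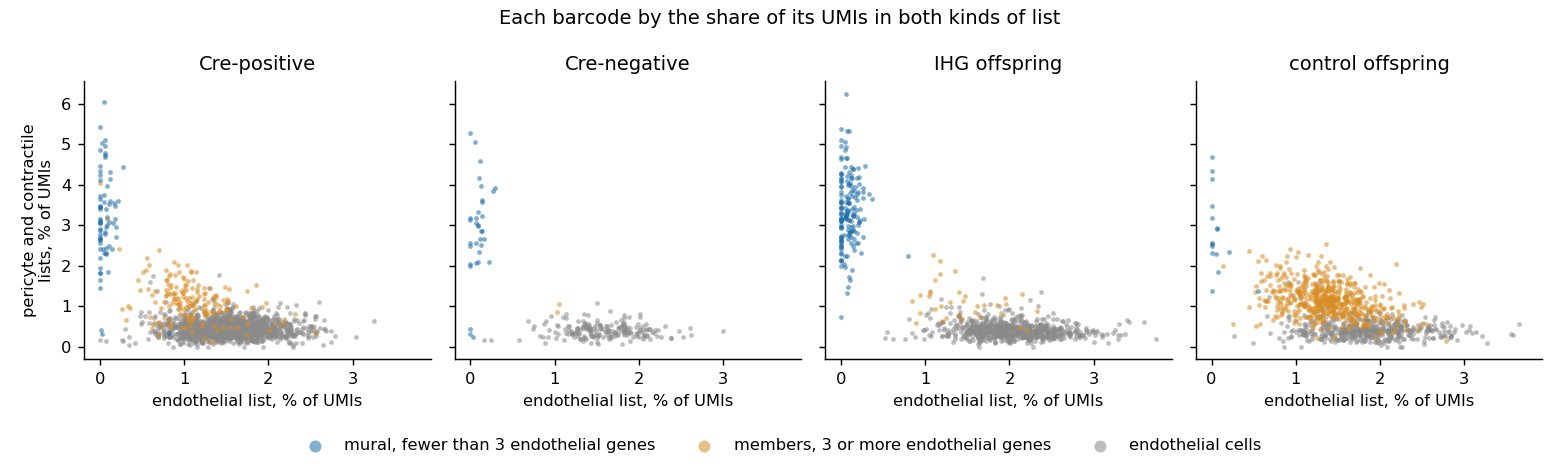
Each barcode by the percent of its UMIs in the endothelial list (horizontal axis) and in the pericyte and contractile lists (vertical axis), in 4 libraries; blue, mural cells; orange, members with 3 or more endothelial genes; grey, endothelial cells. The orange barcodes lie between the other 2 clouds, with medians of 1.09% and 1.12% on the vertical axis in the Cre-positive and control offspring libraries, where the mural medians are 3.08% and 2.55%.

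Other pairs of gene sets were also found under 1 barcode. Hormone-rich cells (at least 10% hormone UMIs) held 3 or more endothelial genes in 1.79% of Cre-positive, 0.321% of Cre-negative, 2.77% of IHG offspring and 1.51% of control offspring cells. Barcodes with 3 or more of the 4 fibroblast genes held at least 2 mural genes in 14 of 42, 11 of 22, 9 of 14 and 2 of 3 cases in the same order. Of all barcodes with 3 or more endothelial genes under the other limits of the gate, 10.3%, 1.00%, 4.53% and 52.1% held the mural genes in those libraries. Rgs5 in endothelial cells without the mural call was at 148, 7.26, 102 and 2191 CPM (UMIs per 1000000 UMIs of the class) in the Cre-positive, Cre-negative, IHG and control offspring libraries. Rgs5 is a gene of the gate, and these cells were chosen for holding fewer than 2 mural genes. Its level in them is therefore tied to the shares above and is given as a description. In hormone-rich cells Rgs5 was at 8.43, 3.55, 29.5 and 28.8 CPM in the same order of libraries. The top 6% of doublet scores (Scrublet, which compares cells with simulated mixtures) held 3 of 174, 0 of 2, 1 of 34 and 8 of 543 of the barcodes with both sets, and no mural cell. The part of doublets and free RNA in these counts was not tested.

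The genes of the gate had the following levels in mural cells. Rgs5, a regulator of G-protein signalling and a pericyte marker, reached 8927 CPM in Cre-positive, 17244 CPM in Cre-negative, 26902 CPM in IHG offspring and 30451 CPM in control offspring mural cells. Notch3 was at 2197, 2738, 3443 and 2684 CPM in that order, and Pdgfrb at 365, 667, 806 and 548 CPM. Rgs5 was lowest in the Cre-positive library, and Notch3 was within a narrow range. Acta2 stood at 2336 CPM in Cre-positive, 1444 CPM in Cre-negative, 2503 CPM in IHG offspring and 1862 CPM in control offspring mural cells. Cspg4, which encodes the NG2 proteoglycan, stood at 759, 490, 1563 and 986 CPM. Without the 4 barcodes, Rgs5 was at 12084 CPM in Cre-positive and 21071 CPM in Cre-negative mural cells and Acta2 at 3170 and 1806 CPM, and no gene of the gate or of the leading genes below moved by more than 1.36 times. At the edge of the gate, 10 Cre-positive, 5 Cre-negative, 7 IHG offspring and no control offspring mural cells held just 2 mural genes, while 33, 45, 13 and 9 barcodes held 1 and stayed outside.

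Beyond the genes of the gate, contractile and pericyte genes led. Among 2512 genes at 50 CPM or more in members of each library, the 20 with the largest excess over all other kept cells in their weakest library included 6 of the contractile list (Myh11, Casq2, Mylk, Tagln, Myl9 and Mustn1) and 5 of the pericyte list (Aoc3, Abcc9, Itga7, Higd1b and Steap4). Myh11 had 2029 CPM in Cre-positive, 1308 CPM in Cre-negative, 1414 CPM in IHG offspring and 1479 CPM in control offspring mural cells, against 0.174 to 2.15 CPM in the rest of each library. Mylk, the kinase that switches on smooth muscle myosin, ranged from 1276 to 1621 CPM. Both are parts of the contractile machine, and their range over libraries was under 2-fold.

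Genes of ion transport ranked beside them. Ano1, a calcium-activated chloride channel that depolarises contractile mural cells, had 933 CPM in Cre-positive, 1076 CPM in Cre-negative, 1573 CPM in IHG offspring and 2191 CPM in control offspring mural cells. Casq2, which buffers calcium in the sarcoplasmic reticulum, had 591, 381, 1117 and 1150 CPM. Both lay near the top of the ranking, beside Myh11. Of the 20 genes, 7 were in no list, among them Mgp, a secreted inhibitor of calcification, Olfr558, an olfactory-type receptor, and Aspn, a small matrix proteoglycan. Mgp stood at 2661 CPM in Cre-positive, 3868 CPM in Cre-negative, 9884 CPM in IHG offspring and 4600 CPM in control offspring mural cells. Olfr558 ranged from 464 to 926 CPM in mural cells and from 0.116 to 1.03 CPM in the rest of the libraries. The members' own values chose these genes, so their excess is a description.

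**Figure D3:**
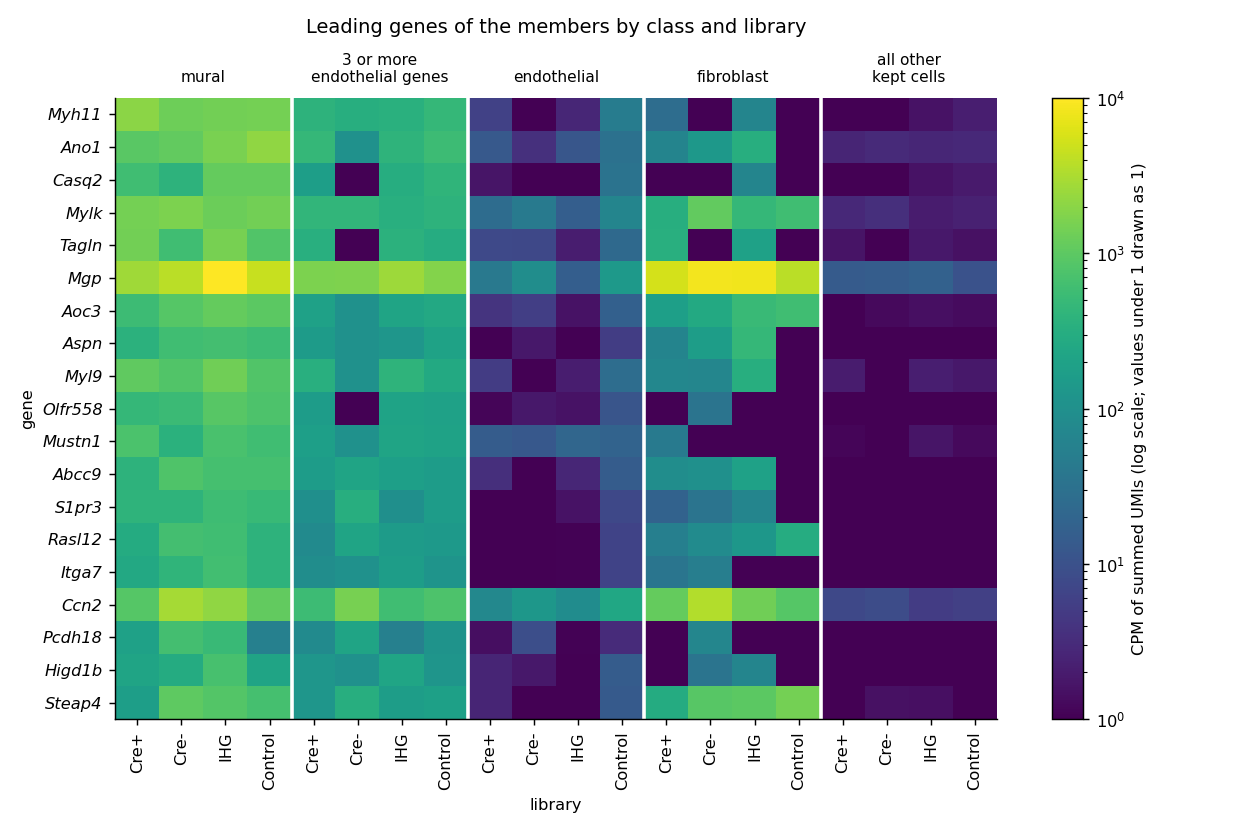
Level of leading genes (rows) in mural cells, members with 3 or more endothelial genes, endothelial cells, fibroblasts and all other kept cells of each library (columns), as CPM of summed UMIs on a log colour scale. Mural columns are brighter than those of all other kept cells for the genes drawn, with Mgp at 2661 to 9884 CPM, and Mgp, Ccn2 and Steap4 are as bright in fibroblasts.

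Against the 2 neighbouring cell types, the mural cells differed in the potassium channel, contractile and matrix genes. Over the 4 libraries, Abcc9 was higher than in endothelial cells by 7.25 ± 1.81 and Myh11 by 8.01 ± 2.27 on the log2 scale (SD, n = 4, 1 CPM added). Endothelial cells of 1 library had no UMI of these genes, and in the other libraries the differences were 6.76 ± 1.25 for Abcc9 and 7.47 ± 2.22 for Myh11 with nothing added (SD, n = 3). Kcnj8 had endothelial UMIs in 2 libraries, where it was higher in mural cells by 7.16 and 7.60. With 3 UMIs in place of 0, all 3 genes were higher in mural cells in 4 of 4 libraries, where the exact sign-flip test cannot give a two-sided p below 0.125. Compared with fibroblasts, Abcc9 was higher by 2.27 ± 0.61 in the 3 libraries where fibroblasts held UMIs of it. Fibroblasts had no UMI of Kcnj8 in any library, and with 3 UMIs in place of 0 mural cells were higher in 2 of 4, so at this depth no difference in Kcnj8 could be given. Collagen genes separated the types in the other direction: Col3a1 was higher than in endothelial cells by 6.10 ± 1.65 and lower than in fibroblasts (-4.96 ± 0.93). Vtn, the gene of the adhesion protein vitronectin and a pericyte marker, was lower than in fibroblasts in 4 of 4 libraries (-2.56 ± 0.59), although it exceeded endothelial cells by 7.22 ± 1.26 in the 3 libraries with endothelial UMIs of it. Col4a1, the main basement membrane collagen, was close to the endothelial level (-0.24 ± 0.65, higher in 2 of 4 libraries). Steap4, a metalloreductase listed here with the pericyte genes, differed from fibroblasts by less than its spread (-0.48 ± 0.59, higher in 1 of 4). Mcam, an adhesion molecule used to sort mural cells, was higher than in fibroblasts by 4.18 ± 1.42 in the 3 libraries with fibroblast UMIs of it and near the endothelial level (0.35 ± 0.39, higher in 3 of 4). Fibroblasts numbered 34, 20, 7 and 3 in the Cre-positive, Cre-negative, IHG and control offspring libraries. Unlike endothelial cells, they were not limited in mural genes. The mural genes of the gate summed to 900, 3676, 5142 and 10963 CPM in fibroblasts, in that order. The part of this in the differences from fibroblasts was not tested.

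Mural cells fell into smooth muscle-type cells, with at least 2 of Myh11, Cnn1, Lmod1, Actg2 and Pln, and pericyte-type cells, with fewer than 2 of these and at least 2 of Kcnj8, Abcc9, Higd1b, Vtn, Ndufa4l2 and Steap4. Smooth muscle-type cells were 26 of 72 in Cre-positive, 9 of 34 in Cre-negative, 30 of 164 in IHG offspring and 2 of 16 in control offspring mural cells. Pericyte-type cells were 26, 19, 116 and 11, and 20, 6, 18 and 3 were neither. Pericyte-type cells were thus 36.1% of Cre-positive mural cells (95% interval 25.1% to 48.3%) and 55.9% of Cre-negative ones (37.9% to 72.8%). In IHG offspring the share was 70.7% (63.1% to 77.6%) and in control offspring 68.8% (41.3% to 89.0%). Intervals overlapped within both pairs. Depth bears on a split by detection: median UMI counts were 2027 in smooth muscle-type and 1449.5 in pericyte-type cells of Cre-positive islets, 1812 and 1823 in Cre-negative islets, 1877 and 1574 in IHG offspring, and 1273.5 and 1097 in control offspring. Cnn1, the gene of calponin, had no UMI in any member, and Pln, which restrains the calcium pump, had 27 UMIs in Cre-positive and 7 in Cre-negative mural cells and none in either offspring library.

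Outside the split, contractile and matrix genes differed between the types, while the rest of the pericyte list did not follow the name of the pericyte-type cells. In the 3 libraries with at least 5 cells of each type, 315 of 2045 genes with 40 or more UMIs were higher in smooth muscle-type cells in each library and 400 were lower. Of 19 contractile-list genes, 12 were higher in each library and none was lower. Of 17 pericyte-list genes outside the split, 2 were higher in each library (Mcam and Aoc3) and 1 lower (Egflam), so pericyte-type cells are called so by their rule alone. Tagln was at 2566 CPM in smooth muscle-type and 775 CPM in pericyte-type cells of Cre-positive islets, at 1246 and 543 CPM in Cre-negative islets, and at 2109 and 1330 CPM in IHG offspring. Its mean log2 difference was 1.15 ± 0.51 (SD, n = 3, 50 CPM added). Tpm2, a tropomyosin of the thin filament, differed by 1.12 ± 0.42, and Acta2, a gene of the gate, by 1.47 ± 0.74.

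By sign, the basement membrane and fibroblast lists lay on the pericyte side. Summed basement membrane levels in smooth muscle-type and pericyte-type cells were 6340 and 9615 CPM in Cre-positive and 9802 and 15932 CPM in Cre-negative islets. In IHG offspring they were close, at 11645 and 12181 CPM, as were fibroblast-list levels, at 7034 and 7423 CPM. Fibroblasts also held Vtn and Steap4, genes of the pericyte split, and their part in this was not tested. Of 11 basement membrane genes, 6 were lower in smooth muscle-type cells in each library and none was higher, and of 9 fibroblast-list genes, again 6 and none. Col4a2 had 704 CPM in smooth muscle-type and 1623 CPM in pericyte-type cells of Cre-positive islets, 1083 and 3084 CPM in Cre-negative islets, and 1951 and 2335 CPM in IHG offspring. Col3a1 had a mean log2 difference of -1.49 ± 0.98 and Col5a2 of -1.09 ± 0.50. Single genes that were apart in every library included Igfbp5, an IGF-binding protein, at 1.26 ± 0.24 and Hey2, a Notch target repressor, at 1.13 ± 0.46 on the smooth muscle side. P4ha1, a prolyl hydroxylase that collagen folding needs, was lower at -1.51 ± 0.64. These 3 genes were picked for having the same sign in each of the 3 libraries, so that agreement is a description. Over these libraries, smooth muscle-type and pericyte-type cells held 32 and 28 UMIs of Hey2 and 6 and 41 of P4ha1. The Notch pathway had 3 of 6 genes higher in each library and none lower, while immediate early and heat shock genes were divided, with 3 of 32 higher and 6 lower.

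The first comparison between groups asked how mural transcripts differ in islets whose epithelium carries the Tet2 and Tet3 deletion driver. A gene counted as higher or lower when it reached 50 CPM in at least 1 of the 2 libraries and differed by at least 2-fold in CPM of summed UMIs. In Cre-positive against Cre-negative mural cells, 2158 of 5221 genes (41.3%) passed, 782 higher (15.0%) and 1376 lower (26.4%), and the median log2 ratio over all genes was -0.28. Many genes rested on few UMIs, 51.1% of them on fewer than 20, and the counting interval excluded 1 for 379 of the higher and 600 of the lower genes. Of the 2551 genes with at least 20 UMIs over both libraries, 477 were higher and 309 lower. The Cre-positive side held 172508 mural UMIs and the Cre-negative side 73415, so a gene higher in Cre-positive cells passes that minimum more easily, and the balance of sparse genes cannot be read from it. Scaling by the median ratio of genes in place of total UMIs, a factor of -0.13 on the log2 scale, gave 943 higher and 1231 lower genes. Without the 4 barcodes that went against their name, 698 of 5044 genes were higher (13.8%) and 1393 lower (27.6%), 41.5% together, with 438 and 911 genes in common with the full sets. The mix of types moved with this comparison, as given above, and so values in pericyte-type cells alone are given beside the lists. Its part in the result was not tested. Deletion itself could not be checked here, since 3′ UMIs need not fall in the floxed exons: Tet2 had 9 UMIs in Cre-positive and 6 in Cre-negative mural cells, and Tet3 had 9 in each.

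Activity-induced and stress genes lay mostly on the higher side. Of 36 immediate early and heat shock genes measured, 18 were higher and 3 lower in Cre-positive mural cells, with a median log2 ratio of 1.00. Without the 4 barcodes, 26 were higher and 1 lower (median 1.49), and in pericyte-type cells alone 22 were higher and 1 lower (median 1.37). Nr4a3, an orphan nuclear receptor induced within an hour of stimulation, had 81 UMIs in 35 of 72 Cre-positive cells and none in Cre-negative cells, at least 11.5-fold higher when 3 UMIs stand for 0. Nr4a2 had 77 UMIs against 1, a ratio of 32.8 (5.71 to 1311). Fosb, a subunit of the AP-1 factor, was at 3438 CPM in Cre-positive and 776 CPM in Cre-negative cells, 4.43-fold higher (3.37 to 5.92) and 9.21-fold without the 4 barcodes. The chaperone genes Hspa1a and Hspa1b were 3.09-fold (2.67 to 3.59) and 2.13-fold (1.89 to 2.41) higher. Endothelial cells of the same libraries had ratios of 26.2 for Nr4a3, 6.0 for Nr4a2, 1.89 for Fosb and 2.14 for Hspa1a. Hormone-rich cells had 1982 CPM of Fosb in the Cre-positive and 539.6 CPM in the Cre-negative library, and 6134 and 1874 CPM of Hspa1a, so these genes were higher across cell types and not in mural cells alone.

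Adamts1, a matrix protease, and Fosl2, another AP-1 subunit, were also among the 10 highest by interval. Adamts1 had 1768 CPM in Cre-positive and 191 CPM in Cre-negative cells, 9.27-fold higher (5.44 to 17.2) and 14.1-fold without the 4 barcodes. Fosl2 had 102 UMIs in Cre-positive cells against 3 in Cre-negative cells, a ratio of 14.5 (4.81 to 71.3). The endothelial ratios were 2.49 for Adamts1 and 5.38 for Fosl2. Other genes of that group moved with the barcode of neural genes: Tubb2a had a ratio of 13.5 with it and 4.04 without the 4 barcodes, Tuba1a 8.68 and 1.76, and Tppp3 10.5 and 1.15. Sncg, at least 7.66-fold higher with it, had 2.16-fold as its bound without. Tubb4b, a tubulin gene as well, kept 10.6-fold. The neural list's summed level was 1003 CPM in Cre-positive and 27.2 CPM in Cre-negative mural cells, of which Tubb3 gave 748 CPM from 1 cell. The endocrine list was likewise 6 higher and 1 lower of 11, and 0 higher and 3 lower of 10 without those barcodes, when its median turned to -0.37, against 1.35 with them.

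**Figure D4:**
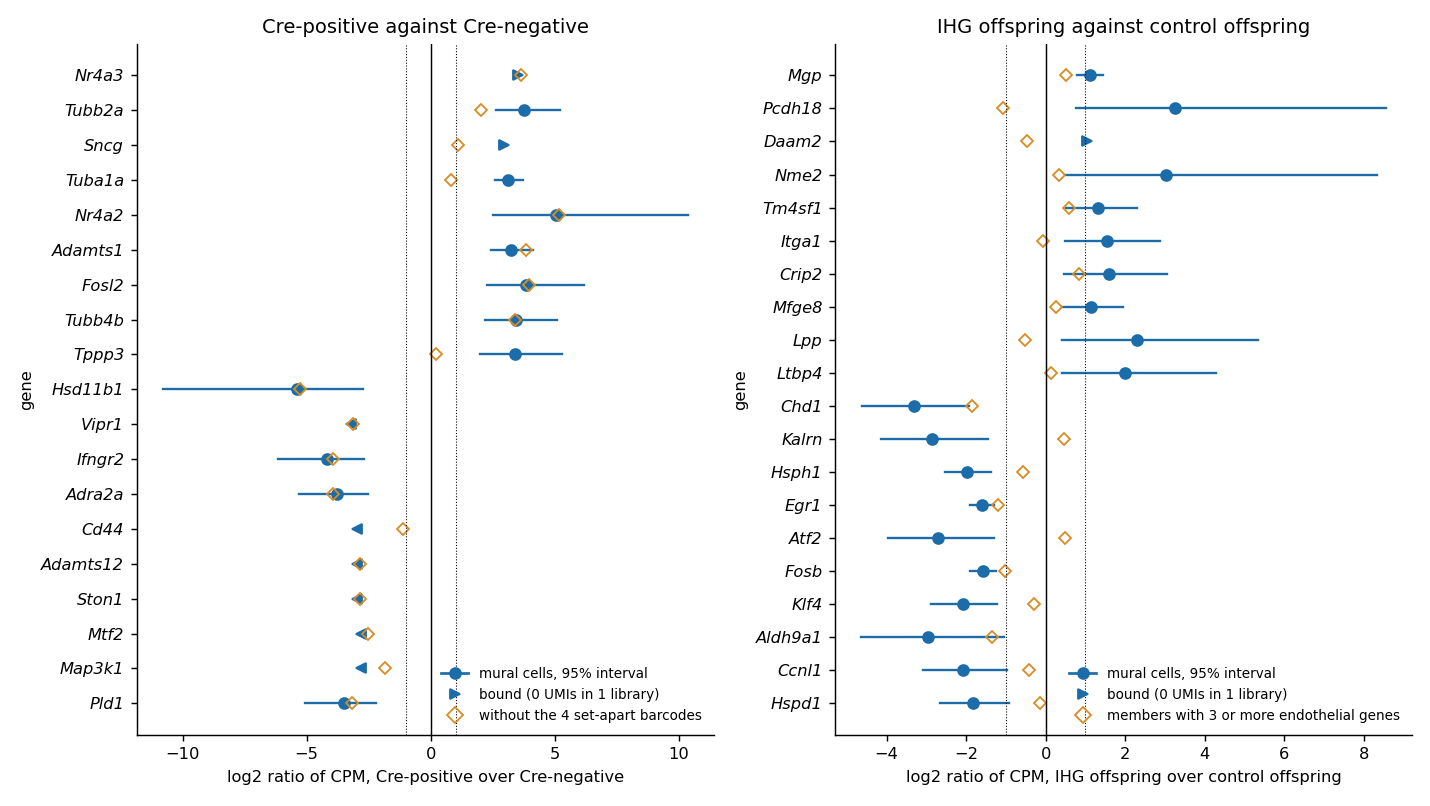
Log2 ratio of CPM for the higher and lower genes of each comparison that lie farthest from 0 by their counting interval; circles with lines, mural cells with 95% intervals; triangles, bounds where 1 library had 0 UMIs; open diamonds, values without the 4 barcodes (left) or in members with 3 or more endothelial genes (right); dotted lines mark 2-fold. On the left Tppp3 is at 1.15-fold without the barcodes, and on the right Pcdh18 changes sign.

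Matrix genes lay mostly on the lower side. Of 16 basement membrane genes, 10 were lower and 1 higher in Cre-positive mural cells (median log2 ratio -1.09). Col4a1 was at 869.5 CPM in Cre-positive and 2193 CPM in Cre-negative cells, 2.52-fold lower, and Col4a2 at 829 and 1852 CPM, 2.24-fold lower. Lama2, the laminin chain of muscle basement membranes, was 8.09-fold lower on 9 UMIs against 31. Endothelial cells had ratios of 1.03 for Col4a1 and 1.28 for Col4a2. Of 10 fibroblast-list genes, 6 were lower and none higher (median -1.38), all of them fibrillar or beaded-filament matrix genes: Col3a1 was 6.11-fold lower, Col5a2 8.73-fold and Col6a1 3.13-fold. Without the 4 barcodes the lists had 8 and 6 genes lower, and in pericyte-type cells alone 7 and 6.

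The pericyte list had no gene higher and 8 of 25 lower (median -0.65, and 0 and 7 without the 4 barcodes), which is near the 26.4% of all genes that were lower. Steap4 was at 174 CPM in Cre-positive and 1022 CPM in Cre-negative mural cells, 5.87-fold lower. Abcc9 was at 383 and 790 CPM, 2.06-fold lower, and 1.90-fold lower, under the rule, without the 4 barcodes. Kcnj8, its channel partner, rested on 7 UMIs against 13. Gucy1a1, a subunit of the nitric oxide receptor guanylate cyclase, was 2.26-fold lower. In pericyte-type cells alone, 2 of 25 genes were higher and 6 lower, and the list's median moved to -0.44, against -0.24 over all genes.

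Receptors that set vessel tone were lower more often than higher. Of 14 vasoactive receptor and cyclic GMP genes, 6 were lower, beside 26.4% of all genes, and 1 was higher. The list's median was -0.55, with an interval of -2.19 to 0.08 that holds the all-gene median of -0.28. The others did not pass the rule, among them Ednra at 365 CPM in Cre-positive and 368 CPM in Cre-negative mural cells. Among cells without the 4 barcodes 8 of 17 were lower and 2 higher, and in pericyte-type cells alone 8 of 15 and 1. Adra2a, an adrenergic receptor, had 6 UMIs in Cre-positive and 35 in Cre-negative cells, 13.7-fold lower, found in 6 of 72 and 12 of 34 cells. Agtr1a, the angiotensin II receptor, was at 104 and 477 CPM, 4.57-fold lower. Npy1r, a neuropeptide Y receptor, was 2.27-fold lower. Leading the lower side by interval were Hsd11b1, which makes active glucocorticoid, with 1 UMI against 18 (42.3-fold lower, ratio interval 0.000567 to 0.150), Ifngr2, a chain of the interferon gamma receptor, with 4 against 31 (18.2-fold lower), and Vipr1, a receptor of vasoactive intestinal peptide, with 0 against 12 (at least 9.40-fold lower). Of the other genes of that group, Pld1 was 11.4-fold lower, and Adamts12, Ston1, Mtf2, Map3k1 and Cd44 had 9 or 10 UMIs in Cre-negative cells and none in Cre-positive ones. Cd44, at least 7.83-fold lower, kept a bound of 2.17-fold without the 4 barcodes, and Map3k1, at least 7.05-fold lower, one of 3.61-fold.

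The contractile list had a median log2 ratio of 0.59, against -0.28 over all genes. Of 24 genes, 5 were higher, beside 15.0% of all genes, and 1 was lower. With members with 3 or more endothelial genes included, the list's median was -0.44. Tagln was at 1426 CPM in Cre-positive and 586 CPM in Cre-negative mural cells (2.43-fold higher, 1.76 to 3.45). Crip1, a LIM-domain protein, was 4.19-fold higher (2.67 to 6.92). Leaving out the 4 barcodes, 6 of 26 were higher and 2 lower. Within pericyte-type cells alone, the median was 0.23, and of 24 genes 5 passed on each side. Interferon and antigen presentation genes were 7 higher and 2 lower of 18 (median 0.85), 7 and 1 of 17 without the 4 barcodes, and 7 and none of 18 in pericyte-type cells. Ifit3, an antiviral effector, had 32 UMIs in 12 Cre-positive cells and none in Cre-negative ones, at least 4.54-fold higher, while the class I gene H2-K1 was 4.11-fold lower (2.17-fold without the 4 barcodes). Hypoxia genes were 5 higher and none lower of 13, 5 and none of 12 without the 4 barcodes, and 5 and 1 of 13 in pericyte-type cells. Both lists were also higher outside mural cells. Summed hypoxia levels in Cre-positive and Cre-negative libraries were 2278 and 1675 CPM in mural, 5462 and 2069 in hormone-rich and 1620 and 1328 in endothelial cells. Summed interferon levels were 3124 and 2888 CPM in mural, 1456 and 802 in hormone-rich and 13718 and 11425 in endothelial cells. Of 12 genes of DNA methylation and its removal, 1 was higher and 5 lower, Tet3 among the lower at 2.35-fold on 9 UMIs in each library (1.68-fold, and no longer past the rule, without the 4 barcodes). Without the 4 barcodes 2 of 11 were higher and 3 lower. In pericyte-type cells none of 9 was higher and 2 were lower, and the list's median was 0.35, against -0.90 in all mural cells.

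Notch and growth factor genes were divided. In the Notch list, 3 of 10 were higher and 4 lower, 3 and 3 without the 4 barcodes, and 2 and 2 of 9 in pericyte-type cells: Nrarp, a feedback target, was at 707 CPM in Cre-positive and 299.7 CPM in Cre-negative cells, 2.36-fold higher (1.49 to 3.9), and Jag1, a ligand, was 2.13-fold lower (1.89-fold without the 4 barcodes). In the PDGF, angiopoietin, VEGF and TGF-beta list, 3 of 14 were higher and 5 lower. That balance turned without the 4 barcodes, to 4 higher and 3 lower of 14, and in pericyte-type cells, to 4 and 1 of 13. Pdgfa was 2.21-fold higher (1.38 to 3.71), and Angpt1, the ligand that quiets endothelium, was at 9 against 10 UMIs and 2.61-fold lower (1.68-fold without the 4 barcodes). Channels and calcium handling genes were 2 higher and 6 lower of 19, but 5 and 5 without the 4 barcodes and 4 and 3 in pericyte-type cells. Secreted growth factors and cytokines were 2 higher and 7 lower of 17, but 3 and 5 of 15 without the 4 barcodes and 4 and 3 of 16 in pericyte-type cells. Over all genes of mural cells, 15.0% were higher and 26.4% lower, and the channels list was near both shares. Its median of -0.18 lay above the all-gene median of -0.28. In pericyte-type cells, lower genes did not outnumber higher ones in either list. Of other cell types, the macrophage list summed to 87.0 CPM in Cre-positive and 27.2 CPM in Cre-negative mural cells, the acinar and ductal list to 52.2 and 804 CPM, the mesothelial list to 52.2 and 477 CPM, the endothelial list to 464 and 790.0 CPM and the stellate list to 800.0 and 736 CPM. None of the acinar, ductal, mesothelial and neural genes was measured at the floor without the 4 barcodes. Cell cycle genes were 1 higher and none lower of 3.

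**Figure D5:**
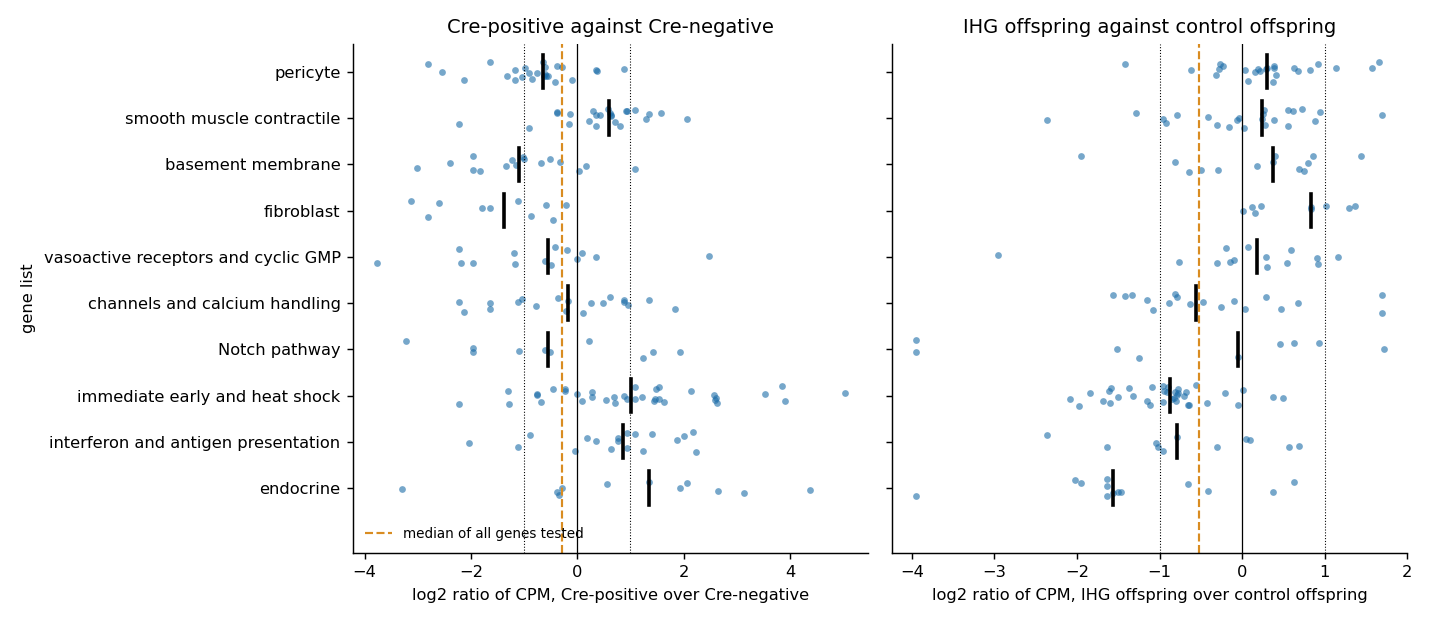
Log2 ratio of CPM for each measured gene of 10 lists (points) in both comparisons, with the list median as a black bar and the median of all genes tested as a dashed line; dotted lines mark 2-fold. The immediate early and heat shock median is 1.00 in Cre-positive against Cre-negative and -0.88 in IHG against control offspring mural cells, and the pericyte medians are -0.65 and 0.30.

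In the second comparison, mural cells of IHG offspring were set against those of control offspring. Of 4942 genes, 1994 (40.3%) passed the rule, 329 higher (6.66%) and 1665 lower (33.7%), with a median log2 ratio of -0.52. The control side was thin, with 16 cells and 18259 UMIs, so that 1 UMI made 54.8 CPM and passed the floor alone. With at least 20 UMIs over both libraries, 329 genes were higher and 315 lower. All 329 higher genes met this minimum, so it took away lower genes alone. Genes higher in the deeper IHG library pass that minimum more easily, so the balance of sparse genes cannot be read from it. The counting interval excluded 1 for 29 of the higher and 169 of the lower genes. The larger sample of members with 3 or more endothelial genes, 34 in IHG and 543 in control offspring, gave 151 of 4115 genes higher (3.67%) and 190 lower (4.62%), 8.29% together. Of these, 4 and 50 were also called in mural cells, neither share above the 6.66% and 33.7% of all genes called there. Ratios in these members are therefore given beside the genes below.

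Immediate early and heat shock genes lay on the lower side. None of 36 was higher and 13 were lower in IHG offspring mural cells, with a median of -0.88, a count near the 33.7% of all genes that were lower. Egr1, an immediate early zinc finger factor, was at 2004 CPM in IHG and 6134 CPM in control offspring mural cells, 3.06-fold lower, and 2.31-fold lower in members with 3 or more endothelial genes. Fosb was at 1693 and 5093 CPM, 3.01-fold lower, and 2.04-fold lower in those members. Endothelial cells had the same direction, 3.30-fold lower for Egr1 and 5.10-fold for Fosb. Klf4, which represses contractile genes in smooth muscle, was 4.25-fold lower in mural cells and 1.23-fold in the other members, and Hsph1, a chaperone, 3.93-fold and 1.49-fold. Over the list, the median was -0.40 in members with 3 or more endothelial genes, where 1 gene was higher and 3 were lower. Other lower genes were less alike: Chd1, a chromatin remodeller, had 14 UMIs in IHG and 9 in control mural cells (9.96-fold lower, and 3.59-fold in the other members), while Kalrn and Atf2 were lower in mural cells and higher in the other members.

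Mgp led the higher genes by its counting interval. It was at 9884 CPM in IHG and 4600 CPM in control offspring mural cells, a ratio of 2.15 (1.73 to 2.70), found in 162 of 164 and 15 of 16 cells, and it was 1.44-fold higher in members with 3 or more endothelial genes. Tm4sf1, a membrane protein of vessel cells, was 2.51-fold higher (1.42 to 4.90) and 1.5-fold in the other members. Crip2, a LIM-domain protein of the vessel wall, was 3.02-fold higher (1.37 to 8.31) and 1.79-fold in the other members. Mfge8, a secreted bridge to dying cells, had a ratio of 2.19 and 1.19 in them. Of the 10 higher genes, 4 had a ratio below 1 in those members: Pcdh18 (9.55 in mural cells, 0.473 in the others), Lpp (4.91 and 0.694), Itga1 (2.93 and 0.950) and Daam2 (at least 2.07 and 0.722).

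Identity genes were similar or higher in IHG offspring mural cells. In the pericyte list, 3 of 24 were higher and 1 lower (median 0.30), beside 6.66% and 33.7% of all genes. Higd1b, a mitochondrial protein of pericytes, was at 689 CPM in IHG and 219 CPM in control offspring (3.15-fold higher, 1.21 to 11.7, on 4 control UMIs), and 1.85-fold higher in the members with 3 or more endothelial genes. Kcnj8 was 2.67-fold lower on 29 against 5 UMIs, with an interval of the ratio from 0.143 to 1.24, and had a ratio of 1.19 in those members (0.460 to 2.57). In the contractile list, 1 of 23 was higher and 2 lower (median 0.24), and in the basement membrane list 1 of 13 each way (median 0.38). Fibroblast-list genes were 3 higher and none lower of 9 (median 0.83): Cygb, a globin of stellate cells and fibroblasts, was 2.02-fold higher (1.17 to 3.83) and 1.296-fold in the other members, and Col6a1, 2.45-fold higher in mural cells (1.03 to 7.64), was at 0.652 of the control level in the other members. In members with 3 or more endothelial genes, the pericyte list had 1 of 21 higher and none lower (median -0.15), the contractile list none of 19 higher and 2 lower, and the basement membrane and fibroblast lists no gene past the rule.

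The remaining lists rested on few control UMIs. Their counts stand beside 6.66% of all genes higher and 33.7% lower in IHG offspring mural cells. Growth factor genes of the PDGF, angiopoietin, VEGF and TGF-beta list were 4 higher and 1 lower of 12, where Tgfbr3, Tgfb2 and Angpt2 each had 1 control UMI and intervals that included 1. Their ratios of 3.42, 2.90 and 2.32 in mural cells stood against 0.535, 1.37 and 0.757 in the other members. Notch genes were 1 higher and 4 lower of 9, with Hes1, a Notch target, at 477 CPM in IHG and 1369 CPM in control offspring, 2.87-fold lower, but at a ratio of 1.45 in the other members. Vasoactive genes were 1 higher and 1 lower of 14, channels 2 and 5 of 18, interferon genes 0 and 4 of 11, hypoxia genes 4 and 3 of 11, secreted factors 2 and 3 of 14, and genes of DNA methylation and its removal 1 and 4 of 10. Lower genes of the channels, interferon and methylation lists were near the share over all genes. In members with 3 or more endothelial genes, each of the lists from PDGF to methylation had at most 3 genes past the rule. Cell cycle genes were 2 higher and 3 lower of 5. Macrophage, neural and mesothelial lists had no gene at the floor, and their summed levels in IHG offspring were 14.1, 81.3 and 10.6 CPM, with no UMI in control offspring. The acinar and ductal list summed to 10.6 CPM in IHG and 54.8 CPM in control offspring, the endothelial list to 933 and 548 CPM and the stellate list to 672 and 602 CPM. Endocrine genes, which mural cells do not make, were 0 higher and 9 lower of 13. Their summed level, leaving out the hormones of the gate, was 2545 CPM in IHG and 5751 CPM in control offspring mural cells, and Iapp was 2.76-fold lower in mural cells, 3.17-fold in the other members and 2.56-fold in endothelial cells. Endocrine transcripts thus moved with this comparison, and their part in the lower genes was not tested.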

How the data were processed

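The deposited matrices hold raw UMI counts per gene and cell, 1 matrix for each of the 4 libraries and 32285 genes each. Cell Ranger, Seurat and the mm10 build are named in the submitters' processing notes, without versions, and the strand setting and other upstream settings were not stated. The members and gene lists were chosen with earlier results of these data known.

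Members were taken by the gate on raw counts stated in the report, from 45709 barcodes of which 43205 had at least 500 genes and at most 20% mitochondrial UMIs. Endothelial cells held at least 3 endothelial genes and fewer than 2 mural genes under the other limits. Fibroblasts held at least 3 fibroblast genes and fewer than 3 endothelial genes, with no limit on mural genes. Hormone-rich cells had 10% or more hormone UMIs. Counts were summed over the cells of a class and library and given as UMIs per 1000000 (CPM). Ratios carry exact 95% binomial intervals for counting error. A gene passed the size rule at 50 CPM in at least 1 of 2 libraries and a 2-fold ratio, with 3 UMIs set in place of 0 over the group. With 1 library per group no test between groups was made. Cell classes were compared over 4 libraries by an exact sign-flip test. Doublets were scored with Scrublet in scanpy 1.11.5 and not removed. Scripts ran in Python 3.11.15 with scipy 1.17.1, pandas 2.3.3, numpy 2.4.6 and matplotlib 3.10.9, and ratios were tested on simulated counts.

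Named genes are those of the gate and the split, the 20 leading profile genes, the 10 higher and 10 lower genes per comparison whose interval lay farthest from 1 (in at least 5 cells and no lower than in hormone-rich cells), and up to 4 per list with the most UMIs past the rule. Some genes that these rules name are not reported here. Other list members named, and the genes set beside them in other classes, were chosen after their values were seen. Promoters are the 250 bases before each RefSeq start on GRCm38.p6. Alternatives were other limits on hormone, mitochondrial and mural genes, other floors and folds, thinning of cells to 2000 UMIs, and other sets of members.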

Additional observations from a re-analysis of the deposited data

How the results depend on the processing

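No paired analysis was possible because each group had 1 library and the labels give no shared replicate numbers, and for the same reason no replicate could be left out. Of 2353 recomputed ratios of named genes, 41 changed sign from a reported value of at least 2-fold. Of the others, 2155 moved by less than their counting interval and 157 by more. Sign changes of genes under 2-fold are among these and were not counted apart. Of 523 list medians 500 stayed within their interval and 23 moved out of it, and 38 medians of 19 lists had another sign than the value as reported. Of these 38, 11 arose with members with 3 or more endothelial genes included, among them the contractile (-0.44), Notch (0.79) and PDGF (0.46) lists of Cre-positive against Cre-negative cells, 7 in those members alone, 3 in pericyte-type cells and 2 without the 4 barcodes. The 28 differences from endothelial cells or fibroblasts were recomputed with at least 3 mural genes and without the top 6% of doublet scores. All 56 values kept their direction, with 1 CPM added. No mural cell was among those scores, so leaving them out did not change the mural side. The minimum of 20 UMIs, leaving out the 4 barcodes, and the comparisons within pericyte-type cells or within members with 3 or more endothelial genes alone were chosen after seeing the data. The cause of a change was not tested unless it lies in fewer cells or genes.

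At a hormone limit of 1%, the mural share of control offspring was 0.0571%, with 0% smooth muscle-type cells, and 164 genes were higher in IHG offspring. At a mitochondrial limit of 10%, the mural share of IHG offspring was 1.66%. Thinned to 2000 UMIs, which leaves out most mural cells, mural shares were 0.312%, 0.218%, 0.432% and 0% in Cre-positive, Cre-negative, IHG and control offspring islets. Members with 3 or more endothelial genes then made up 82.8% in Cre-positive, 36% in IHG and 100% in control offspring islets. Mural cells per endothelial cell were then 0.0326, 0.112 and 0.121 in Cre-positive, Cre-negative and IHG offspring islets. Control offspring had 0 mural cells, and the value was 0.0142 with 3 cells set in place of 0.

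Genes lower in Cre-positive mural cells numbered 2214 at a floor of 20 CPM and 2669 with no floor. At 1.5-fold, 1241 were higher and 2072 lower in Cre-positive and 680 higher in IHG offspring mural cells. With at least 20 UMIs over both libraries, 477 were higher and 309 lower in Cre-positive mural cells. In IHG offspring mural cells, 329 were then higher and 315 lower. Genes higher in the deeper library pass this minimum more easily. Lists with a median above that of all genes were 8 of 17 in Cre-positive mural cells and 5 of 15 without the 4 barcodes. In IHG offspring they were 11, against 7 with members with 3 or more endothelial genes included, when 385 genes were lower, and 7 in those members alone, with 151 genes higher and 190 lower. In pericyte-type cells alone, 208 genes were higher in IHG offspring.

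Sign changes are listed, as log2 ratios, only for genes reported at 2-fold or more. For Cre-positive against Cre-negative cells they were Tppp3 at -1.06 and Ppy at -0.25 after thinning. With members with 3 or more endothelial genes included, they were Mustn1 at -0.19, Esam at 0.054 and H2-K1 at 0.15. In pericyte-type cells, they were Pgk1 at -0.24 and Tet3 at 0.76. For IHG against control offspring with members with 3 or more endothelial genes included, they were Ltbp4 at -0.26, Kalrn at 0.42, Atf2 at 0.058, Kcnj8 at 1.09, Esam at -0.052, Lamb1 at -0.55, Hes1 at 0.025, Maml2 at 0.33, Atp2b4 at 0.21, Cacna1c at 1.43, Kitl at -0.35, Pgk1 at -0.063, Mbd2 at -0.55, Tet3 at 0.22 and Pcna at -0.93. In those members alone, they were Pcdh18 at -1.08, Daam2 at -0.47, Itga1 at -0.075, Lpp at -0.53, Kalrn at 0.46, Atf2 at 0.48, Col6a1 at -0.62, Col3a1 at -0.18, Lamb1 at -0.053 and Hes1 at 0.54. The others were Hey1 at 0.67, Tgfbr3 at -0.90, Angpt2 at -0.40, Ednra at -0.30, Kitl at -0.22, B2m at 0.31, Mbd2 at -0.15, Gadd45g at 0.80 and Pcna at -0.40.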
